A study of Sus scrofa with 4 samples.

Results

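The cells described here are the monocytes of regenerated pig bone, a population rich in IL1B transcripts, taken from droplet single-cell RNA libraries of Bama mini-pigs aged 8 months. There were 2 libraries from bone given the peptide 1797 and 2 from bone given a control peptide, and the series compares the peptides to study how peptide treatment builds bone. The tissue was digested with collagenase and red cells were lysed. The labels give no genotype, sex, dose or time after treatment, and do not tie libraries to animals, so p-values measure only the spread between these libraries, which may be technical. A barcode counted as a monocyte if it had at least 200 genes, under 20% of its counts in the 13 mitochondrial genes and at least 2000 UMIs (unique molecule counts), with CSF1R and at least 2 of VCAN, FCN1 and CD14 detected, at most 1 UMI in C1QA, C1QB and C1QC together, and none of CD3E, CD79B and FLT3. This gave 1394 monocytes among 50935 kept barcodes, or 2.74%. They numbered 260 and 505 with 1797 and 224 and 405 with control peptide.

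Monocytes leave the marrow, travel in the blood and enter injured tissue, where they can become macrophages or osteoclasts. IL1B, the gene of interleukin-1 beta, is switched on by NF-kB after danger signals, and its protein precursor is cut to the active cytokine by caspase-1 in the NLRP3 inflammasome. Interleukin-1 beta is known to draw in neutrophils through chemokines such as CXCL8 and to promote bone resorption by osteoclasts.

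The 1797 libraries held 87844389 and 98758412 UMIs in all and the control libraries 96410215 and 98294210, of which the monocytes took between 4075293 and 10430083. Monocytes had a median of 13866.5 and 19127 UMIs with 1797 and of 17646 and 17720 with control peptide. Their median mitochondrial share was 2.92% and 3.15% with 1797 and 2.95% and 2.77% with control peptide. The doublet caller Scrublet marked 0 and 1 of the monocytes with 1797 and 2 and 13 with control peptide, and these were kept. No monocyte barcode was shared between libraries, although any pair of libraries shared 37 to 48 kept barcodes. Library 1797 replicate 2 stood apart in having almost no stromal RNA in its monocytes: the 7 stromal markers summed to 3954 and 463 CPM (UMIs of a gene per 1000000 UMIs of the monocytes) with 1797 and to 4750 and 7203 CPM with control peptide. Most of it sat in few barcodes. There were 6 and 0 monocytes with over 1% of their UMIs in COL1A1, COL1A2, COL3A1 and SPARC with 1797 and 2 and 12 with control peptide, and where present they held 92.9% to 95.2% of the COL1A1 UMIs of all monocytes.

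The monocyte markers were present. FCN1, which encodes the secreted pattern recognition protein M-ficolin, was detected in 93.5% and 96.0% of the monocytes of the 1797 libraries and in 99.1% and 95.3% of those of the control libraries, against 2.02% and 5.94% of T cells with 1797 and 3.67% and 11.8% of T cells with control peptide. The T cells, taken by CD3E, had a median depth of 6919 to 7766 UMIs. In neutrophils, taken by CSF3R and CXCR2 without CSF1R, FCN1 was detected in 19.5% and 32.4% with 1797. The neutrophil shares were 9.25% and 41.7% with control peptide, at median depths of 2467 to 2927 UMIs. Dendritic cells had FCN1 in 10.2% and 44.0% of barcodes with 1797 and 24.0% and 43.9% with control peptide. FCN1 was itself one of the genes of the rule, so this is a description. All 18 monocyte markers found in the files were detected in the monocytes. So were all 9 macrophage, 7 osteoclast and 6 neutrophil markers in the files, since 1 UMI over all monocytes counted as detection. This count alone therefore does not tell lineages apart. The 18 monocyte markers summed to 5367 and 6227 CPM in the monocytes with 1797 and to 4051 and 10394.5 CPM with control peptide. Their sum was higher in neutrophils, at 7995 and 29979 CPM with 1797 and 6772 and 49075 CPM with control peptide. Among defining genes of other lineages, CD3E, CD79B and FLT3 were absent by the rule. CLEC10A of dendritic cells, which the rule did not use, was at 0, but 5 of the 7 dendritic cell markers in the files were detected. The 7 summed to 37.9 and 44.5 CPM with 1797 and 45.9 and 61.7 CPM with control peptide. In dendritic cells, taken by FLT3 and CD74, they summed to 547 and 478 CPM with 1797 and 608 and 531 CPM with control peptide. Other lineages were not wholly absent: 19 and 82 monocytes of the 1797 libraries and 10 and 97 of the control libraries had both CSF3R and CXCR2, receptors that mark neutrophils. At least 1 UMI of the osteoclast markers ACP5, CTSK, DCSTAMP or OCSTAMP was present in 163 and 245 monocytes of the 1797 libraries. In the control libraries 115 and 241 monocytes had one.

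IL1B was not part of the rule. It lies on chromosome 3 at 43670126 to 43677125 in the Sscrofa11.1 build. Its level in the monocytes was 1021 and 1079 CPM with 1797 and 971 and 685 CPM with control peptide. C1Q macrophages, the CSF1R barcodes with at least 5 UMIs of the C1Q genes, had 38.6 and 43.0 CPM with 1797 and 51.9 and 84.0 CPM with control peptide. Monocytes thus stood above macrophages in all 4 libraries, and their ranges did not meet. Dendritic cells, taken by FLT3 and CD74, came next with 202 and 204 CPM with 1797 and 265 and 153 CPM with control peptide. Neutrophils, taken by CSF3R and CXCR2 without CSF1R, had 81.0 and 115 CPM with 1797 and 53.2 and 32.5 CPM with control peptide, which overlapped with the macrophages. T cells, which should lack the gene, had 14.2 and 10.7 CPM with 1797 and 10.7 and 7.13 CPM with control peptide. The order of these classes is given without a test, since the classes were cut from the same counts.

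**Figure D1:**
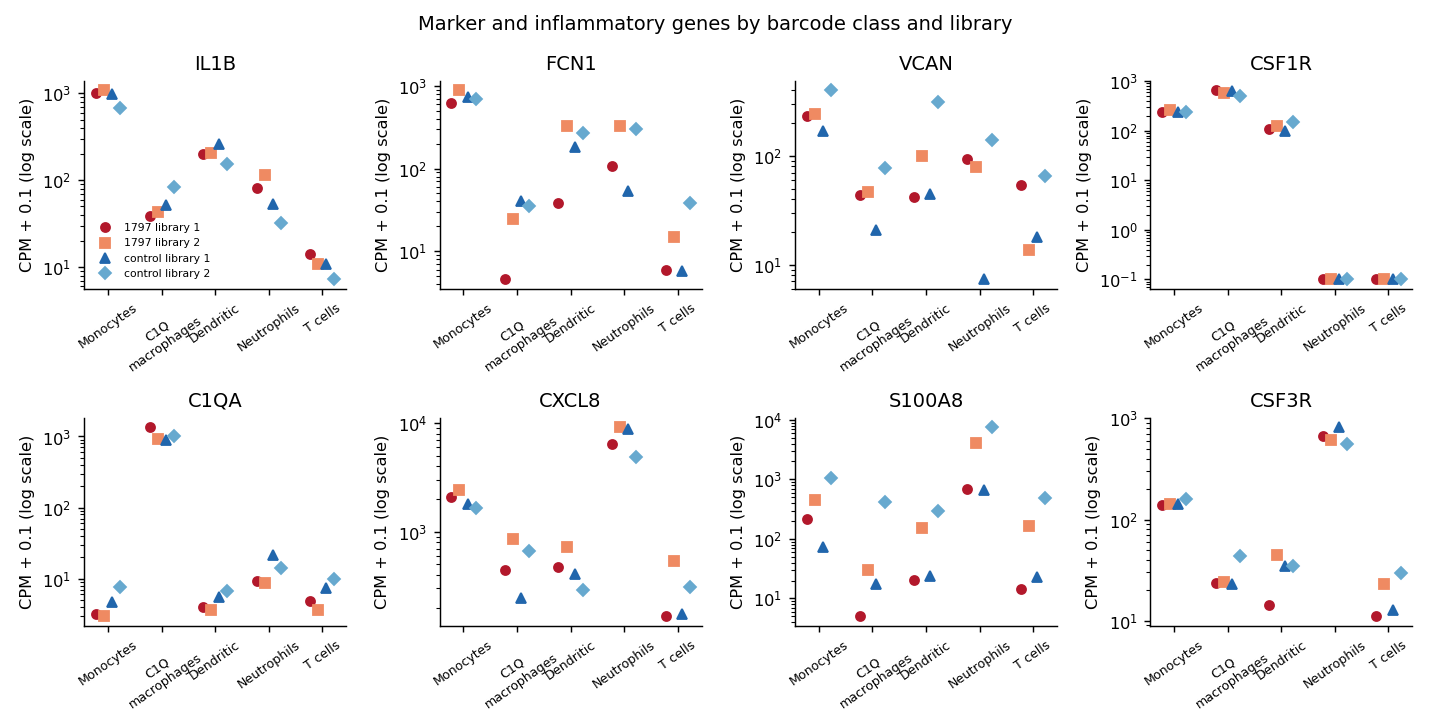
Level of 8 genes (CPM plus 0.1, log scale) in monocytes and 4 other barcode classes, 1 point per library, 1797 libraries left of control libraries within each class. IL1B and FCN1 were highest in monocytes in every library, CXCL8, S100A8 and CSF3R in neutrophils, and CSF1R was 0 by definition in neutrophils and T cells.

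IL1B was unevenly spread over single monocytes. An IL1B UMI was found in 75.4% (95% Wilson interval 69.8% to 80.2%) and 77.0% (73.2% to 80.5%) of the monocytes of the 1797 libraries and in 80.4% (74.7% to 85.0%) and 61.2% (56.4% to 65.9%) of those of the control libraries. The intervals cover counting error only. After each barcode was thinned to 2000 UMIs the shares were 55.4% and 52.1% with 1797 and 55.4% and 37.5% with control peptide. Control replicate 2 was the low library by either measure, while control replicate 1 was level with or above the 1797 libraries. In T cells an IL1B UMI was found in 2.98% and 6.37% of barcodes of the 1797 libraries and in 5.07% and 5.92% of those of the control libraries, at a lower depth. After thinning these shares were 0.888% and 1.68% with 1797 and 1.91% and 1.41% with control peptide. The tenth of monocytes with the most IL1B held 50.8% and 51.5% of all IL1B UMIs with 1797 and 44.6% and 57.5% with control peptide. The median monocyte had 4.62 and 3.65 IL1B UMIs per 10000 UMIs with 1797 and 4.63 and 1.09 with control peptide.

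**Figure D2:**
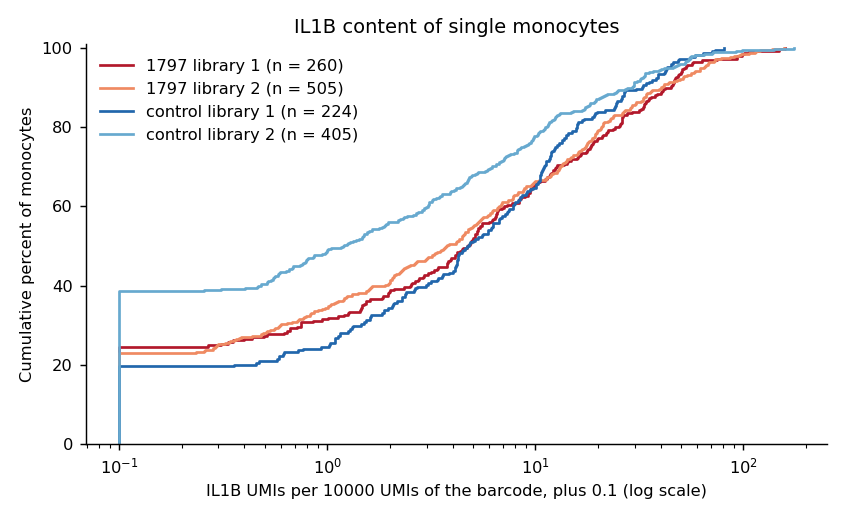
Cumulative percent of monocytes (vertical axis) against IL1B UMIs per 10000 UMIs of the barcode plus 0.1 (horizontal axis, log scale), 1 line per library. The step at the left is the share of monocytes with no IL1B UMI, which was largest in control replicate 2, where 61.2% had one.

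IL1B differed between monocytes with different markers. The few monocytes that qualified through VCAN and CD14 without FCN1, 17 and 20 with 1797 and 2 and 19 with control peptide, had 75.3 and 16.7 CPM of IL1B with 1797 and 0 and 13.6 CPM with control peptide. Those with FCN1 and CD14 without VCAN had 1838 and 1535 CPM with 1797 and 877 and 990 CPM with control peptide. Those with VCAN and FCN1 without CD14 had 694 and 726 CPM with 1797 and 734 and 270 CPM with control peptide. Those with all 3 markers had 1272 and 1448 CPM with 1797 and 1214 and 921 CPM with control peptide, and were the highest of these sets only in control replicate 1. Barcodes just outside the threshold, with 1 of the 3 markers and otherwise the same rule, had 195 and 117 CPM of IL1B with 1797 and 164 and 93.0 CPM with control peptide. Barcodes just inside, with 2 of the 3, had 849 and 743 CPM with 1797 and 752 and 343 CPM with control peptide.

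To see what travelled with IL1B inside the population, monocytes were thinned to 2000 UMIs, ranked by IL1B and split evenly into 3 sets per library. The top set, called IL1B-high here, was set against the bottom set, called IL1B-zero, whose barcodes all had 0 IL1B UMIs after thinning. Some IL1B-zero barcodes did have IL1B UMIs at full depth in both 1797 libraries and in control replicate 1. Each set held 86 and 168 barcodes with 1797 and 74 and 135 with control peptide. The sets were cut from the same counts, so ratios are given as descriptions without a test, on a log2 scale with 0.01 UMI added to each mean. Without thinning, the IL1B-zero set was deeper in every library, at medians of 16243.5 and 19526 UMIs with 1797 and 17907 and 18318 UMIs with control peptide. The IL1B-high set had medians of 11342.5 and 17045.5 UMIs with 1797 and 16906.5 and 16643 UMIs with control peptide.

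The 10 genes with the largest lowest ratio over the 4 libraries were chosen by these values. IL1A, at 43718320 to 43731668 on chromosome 3 near IL1B, led them. It encodes interleukin-1 alpha and averaged 3.40 and 3.12 UMIs in the IL1B-high sets of the 1797 libraries, against 0.593 and 0.571 in their IL1B-zero sets. In the control libraries it averaged 2.73 and 3.17 UMIs in the IL1B-high sets, against 0.635 and 0.467 in the IL1B-zero sets. NLRP3, the sensor of the inflammasome, had log2 ratios of 1.52 and 1.58 with 1797 and of 1.64 and 2.25 with control peptide. MEFV, which encodes the inflammasome sensor pyrin, had ratios of 2.53 and 2.26 with 1797 and of 2.08 and 2.36 with control peptide. The neutrophil chemokines moved the same way: CXCL8 had log2 ratios of 3.00 and 2.23 with 1797 and of 2.17 and 2.00 with control peptide. CXCL2 had 3.42 and 2.44 with 1797 and 2.08 and 3.17 with control peptide. The rest of the 10 were EREG (epiregulin, a ligand of the EGF receptor), GPR84 (a receptor for medium-chain fatty acids), LOC100525396, NFKB1 (an NF-kB subunit) and NFKBIA (an inhibitor that NF-kB itself induces), with lowest ratios between 1.26 and 1.49.

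Most NF-kB feedback genes followed IL1B. Of the 17 genes of that list with at least 0.05 UMI per barcode, 13 were higher in the IL1B-high set in all 4 libraries and 0 were lower, where 10.4% of all 4356 such genes were higher and 18.3% lower. The list's median log2 ratio was 1.02, against -0.17 over all those genes. Of the other IL-1 and inflammasome genes 4 of 6 were higher, with a median of 1.39. Bone-acting cytokines were mixed, with 8 of 14 higher and 2 lower. HBEGF, an EGF receptor ligand, had log2 ratios of 1.68 and 0.94 with 1797 and of 1.63 and 0.83 with control peptide. OSM, the cytokine oncostatin M, was not higher in every library, with ratios of 1.46 and 1.08 with 1797 and of 0.33 and -0.24 with control peptide. PTGS2, the inducible enzyme of prostaglandin synthesis, had ratios of 1.72 and 1.30 with 1797 and of 0.81 and 1.88 with control peptide.

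Several genes of repair macrophages and of osteoclast precursors were lower in the IL1B-high set. Of 9 repair and lipid genes 5 were lower in the IL1B-high set in all 4 libraries and 1 was higher, with a median log2 ratio of -1.09. Of 12 osteoclast precursor genes 4 were lower in all 4 libraries and 1 higher, 7 were neither, and the median was -0.76. Over all 4356 genes of at least 0.05 UMI per barcode, 18.3% were lower and 10.4% higher in all 4 libraries. NFATC1, the master regulator of osteoclast formation, had log2 ratios of -1.62 and -2.62 with 1797 and of -1.95 and -1.61 with control peptide. NFATC1 RNA was scarce (CPM given below), so after thinning its ratios rested on few UMIs, above all in the smaller sets. ACP5, the osteoclast enzyme TRAP, had -0.87 and -2.72 with 1797 and -1.10 and -2.92 with control peptide. FABP5, a fatty acid carrier, had -1.86 and -1.34 with 1797 and -1.01 and -0.65 with control peptide. ARG1, which encodes arginase, was the exception on the repair list, with 0.88 and 0.95 with 1797 and 0.35 and 1.26 with control peptide. The 10 genes with the most negative highest ratio, named after their values were seen, began with CLU (clusterin, a secreted chaperone), with -4.86 and -3.85 with 1797 and -2.15 and -3.36 with control peptide. They went on with ATP8A1, HSP70.2, ARHGAP25, AGAP1, the carboxypeptidase gene CPM, AFF1, HSPD1, BCAR3 and IFNGR1, the last of which encodes a chain of the interferon gamma receptor. Part of the CLU RNA sat in the barcodes with over 1% stromal UMIs. Without them CLU in all monocytes went from 343 to 210 CPM in 1797 replicate 1. It went from 51.3 to 47.4 CPM in control replicate 1 and from 300 to 125 CPM in control replicate 2. The sets were not cut again without these barcodes. C1Q macrophages had 1639 and 2283 CPM of CLU with 1797 and 1617 and 1314 CPM with control peptide. Among 13 interferon response genes 0 were higher and 0 lower in all 4 libraries, against 10.4% and 18.3% of all 4356 genes.

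S100A8 varied between the libraries of each group. This calcium-binding alarmin, made by neutrophils and monocytes, stood at 214 and 453 CPM in the monocytes of the 1797 libraries and at 72.6 and 1058 CPM in those of the control libraries. Its level in neutrophils was 692 and 4162 CPM with 1797 and 676 and 7545 CPM with control peptide, and its level in T cells was 14.4 and 162 CPM with 1797 and 22.9 and 485 CPM with control peptide. Replicate 2 was the higher library of each group in all 3 classes, and the groups overlapped. Whether the monocyte values include RNA from neutrophils was not tested.

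The first question of the design is whether 1797 changed how many monocytes were present. They made up 2.07% and 3.84% of kept barcodes with 1797 and 1.67% and 3.42% with control peptide, means of 2.96% ± 1.25 and 2.54% ± 1.23 (SD, n = 2 each). Replicate 2 was the higher in each group and the groups overlapped. The difference of 0.41 percentage points had p = 0.667 in a two-sided exact permutation test, whose smallest possible p with 2 against 2 libraries is 0.333. Of barcodes with CSF1R, monocytes were 22.2% and 27.7% with 1797 and 12.9% and 24.4% with control peptide, means of 24.96% ± 3.85 and 18.6% ± 8.17 (SD, n = 2 each), with p = 0.667 in the same exact test. Control replicate 1 was lowest and the groups overlapped. Over CSF1R barcodes of at least 2000 UMIs with no CD3E, CD79B or FLT3 UMI the shares were 32.8% and 43.5% with 1797 and 28.9% and 46.0% with control peptide, a difference of 0.66 percentage points in place of 6.33 (exact permutation p = 1.00). When every barcode was thinned to 2000 UMIs before the rule was applied, the differences turned to -0.09 and -1.45 percentage points.

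The second question is which genes of the monocytes differed with the peptide. Counts were summed per library and tested with edgeR's quasi-likelihood test over 11611 genes. At a Benjamini-Hochberg adjusted p of 0.05 the test called 0 genes (0%). Before adjustment 164 genes (1.41%) were higher and 197 (1.7%) lower at p under 0.05, or 361 (3.11%) in all. DESeq2, a second tool, called 21 of 9810 genes (0.214%), 7 higher and 14 lower. No gene below is therefore called changed by the main test, and fold changes are given as values with their standard error. A lower level in summed counts can mean fewer transcribing cells or less RNA per cell, and the sums alone cannot tell these apart.

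The medians of the IL-1 and NF-kB lists changed sign with the library left out. IL1B, with the levels given above, was higher in both 1797 libraries than in both control libraries, as were 19.4% of all genes tested. Its log2 fold change was 0.26 ± 0.31 (1797 over control, edgeR standard error, unadjusted p = 0.434). Without control replicate 2, the lowest library, the value was -0.05. IL1A stood at 627 and 710 CPM with 1797 and at 773 and 565 CPM with control peptide, so the groups overlapped. NLRP3 stood at 538 and 771 CPM with 1797 and at 765 and 526 CPM with control peptide. CASP1, the caspase that cuts the precursor, stood at 39.5 and 34.0 CPM with 1797 and at 48.3 and 37.8 CPM with control peptide. Of the 12 tested genes of the IL-1 and inflammasome list 5 were higher and 7 lower, with 0 at unadjusted p under 0.05 and a median log2 fold change of -0.05. Over all genes tested the median was 0.00 and 50.6% were higher. NF-kB feedback genes, 8 of 18 higher, had a median of -0.03. Without control replicate 1 and without control replicate 2 this median was 0.28 and -0.32, and that of the IL-1 list 0.23 and -0.21.

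Of 13 chemokine genes 8 were higher with 1797, against 50.6% of all genes, and their median was 0.24, or -0.09 without 1797 replicate 2. At an unadjusted p under 0.05 in edgeR 1 was higher and 1 lower. CCL2, which attracts monocytes, stood at 292 and 447 CPM with 1797 and at 200 and 249 CPM with control peptide. Both 1797 libraries were above both control libraries, with a log2 fold change of 0.66 ± 0.26 (unadjusted p = 0.0575 in edgeR). CXCL8 stood at 2096 and 2417 CPM with 1797 and at 1815 and 1661 CPM with control peptide, also without overlap, with a log2 fold change of 0.31 ± 0.26. In T cells CXCL8 was at 167 and 536 CPM with 1797 and at 174 and 311 CPM with control peptide. CXCL2 and CCL5 were likewise higher in both 1797 libraries, while CCL8 was lower, at 21.4 and 30.1 CPM with 1797 and 35.1 and 50.1 CPM with control peptide. CCL5 stood at 150 and 131 CPM with 1797 and 92.5 and 111 CPM with control peptide. T cells held more CCL5, 564 and 748 CPM with 1797 and 1193 and 1153 CPM with control peptide. The part of free RNA in the monocyte CCL5 values was not tested. CXCL14 was higher, at 44.0 and 46.1 CPM with 1797 and 21.1 and 24.1 CPM with control peptide. Its unadjusted p of 0.0081 in edgeR was 0.314 without the stromal-rich barcodes, where its log2 fold change was 0.61. CXCL16 stood at 53.9 and 67.8 CPM with 1797 and 112 and 63.5 CPM with control peptide.

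Cytokines and growth factors that act on bone cells showed no common direction, with 9 of 23 higher and a median of -0.12. TGFB1, which couples resorption to formation, stood at 911 and 854 CPM with 1797 and at 976 and 776 CPM with control peptide. OSM stood at 267 and 288 CPM with 1797 and at 241 and 308 CPM with control peptide. VEGFA, the main angiogenic factor, stood at 187 and 210 CPM with 1797 and at 200 and 164 CPM with control peptide. In each of these 3 the control libraries lay on both sides of at least 1 of the 1797 libraries. SPP1 (osteopontin) stood at 171 and 207 CPM with 1797 and at 157 and 323 CPM with control peptide, and its log2 fold change of -0.37 became 0.42 without the stromal-rich barcodes. HBEGF and THBS1 had -0.21 ± 0.23 and -0.33 ± 0.28.

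Surface and trafficking genes were lower more often than higher, 15 of 19 with a median of -0.34, of which 8 of 19 were below both control libraries against 11.4% of all genes. Without control replicate 1 the median was -0.15. Other classes had this list lower too, 16 of 19 in C1Q macrophages, 15 of 19 in dendritic cells and 12 of 16 in neutrophils. Their medians were -0.36, -0.29 and -0.36. F13A1, the coagulation factor XIII subunit that marks classical monocytes, stood at 598 and 450 CPM with 1797 and at 747 and 856 CPM with control peptide, a log2 fold change of -0.67 ± 0.23 (unadjusted p = 0.0381 in edgeR). CCR1, a chemokine receptor, stood at 33.4 and 30.2 CPM with 1797 and at 47.6 and 49.3 CPM with control peptide. CCR2, the receptor for CCL2, stood at 55.3 and 49.2 CPM with 1797 and at 38.3 and 62.6 CPM with control peptide, with overlap. PLAUR, CD44, FCGR3A, ICAM1 and ITGB2 had log2 fold changes between -0.39 and 0.32. Pattern recognition genes were lower in 10 of 12, with a median of -0.29, also -0.15 without control replicate 1. Their median was -0.36 in C1Q macrophages, -0.30 in dendritic cells and -0.01 in neutrophils. TLR2 stood at 468 and 401 CPM with 1797 and at 654 and 469 CPM with control peptide. In the prostaglandin list 9 of 12 were lower with a median of -0.51, which was -0.16 without control replicate 2. The list's median was -0.31 in C1Q macrophages, -0.12 in dendritic cells and -0.02 in neutrophils. PTGS2, the inducible cyclooxygenase, overlapped between the groups, at 358 and 290 CPM with 1797 and 312 and 135 CPM with control peptide, a log2 fold change of 0.44 ± 0.50. PTGER4, a receptor for prostaglandin E2, stood at 262 and 270 CPM with 1797 and at 378 and 391 CPM with control peptide. PTGES, an enzyme that makes prostaglandin E2, stood at 47.3 and 59.8 CPM with 1797 and at 86.6 and 82.9 CPM with control peptide. PTGER4 and PTGES were lower in both 1797 libraries, with unadjusted p of 0.0214 and 0.0275 in edgeR.

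**Figure D3:**
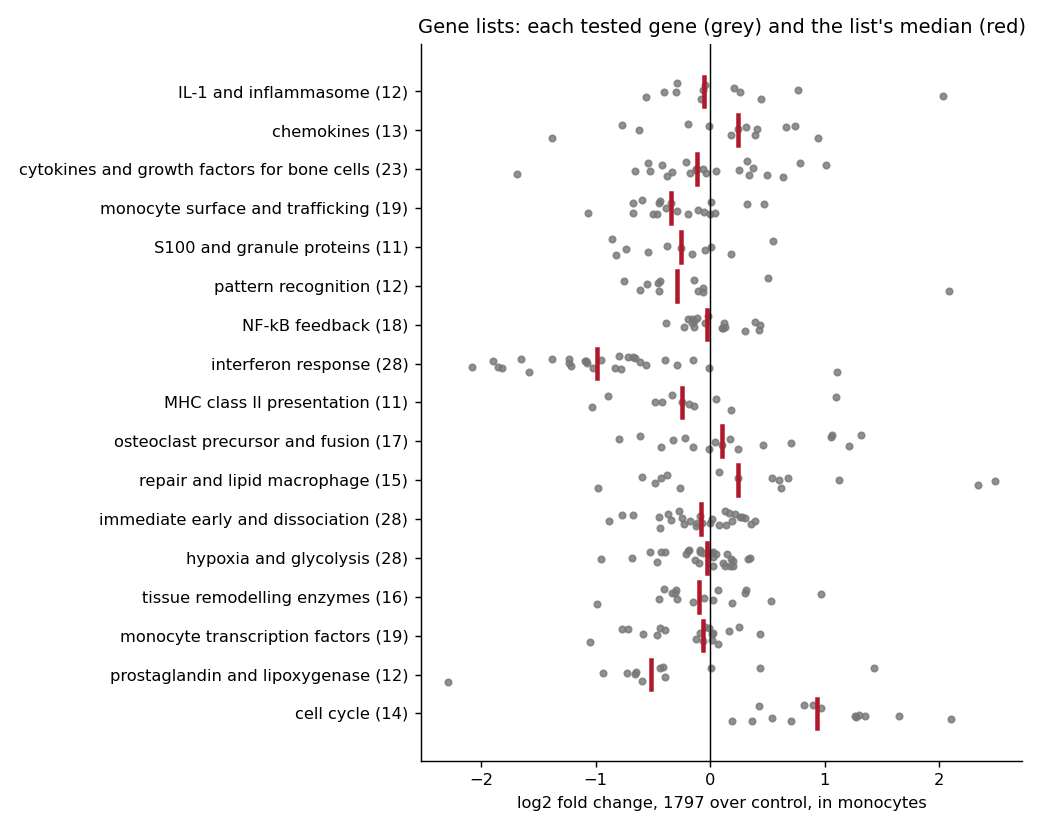
Log2 fold change (1797 over control, horizontal axis) of each tested gene of 17 lists in monocytes, grey points, with the median of each list as a red bar and the number of tested genes in brackets. The interferon list had a median of -0.99 and the cell cycle list of 0.93, while the IL-1 and NF-kB lists lay near 0.

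Interferon response genes are switched on by interferon signalling. Of the 28 tested 27 were lower with 1797 and 1 was higher. The median log2 fold change was -0.99, and 12 were lower at unadjusted p under 0.05, where 1.7% of all genes were. Both 1797 libraries were below both control libraries for 22 of the 28, against 11.4% of all genes. The list was chosen with its lower level in monocytes already known, so the count is not independent evidence. Of 4 tested T cell markers 3 were lower in the monocytes, with a median of -1.30, and all 7 summed to 16.9 and 10.5 CPM with 1797 and 28.0 and 25.5 CPM with control peptide, with CD3E at 0 by the rule. Stromal or osteoblast markers were lower in 7 of 7, with a median of -1.17. The part of T cell RNA in the interferon values was not tested. IFI6, an interferon-induced mitochondrial protein gene on chromosome 6 at 84852782 to 84858072, stood at 70.3 and 83.3 CPM with 1797 and at 230 and 209 CPM with control peptide. Its log2 fold change was -1.58 ± 0.21 (adjusted p = 1.00 in edgeR and 1.14e-04 in DESeq2). ISG15, a ubiquitin-like modifier on chromosome 6 at 63363201 to 63364211, stood at 25.4 and 24.3 CPM with 1797 and at 57.7 and 66.97 CPM with control peptide, a log2 fold change of -1.38 ± 0.20 (adjusted p = 0.00687 in DESeq2). The RNA sensor IFIH1 stood at 33.2 and 35.4 CPM with 1797 and at 56.9 and 50.7 CPM with control peptide, and the kinase gene EIF2AK2 at 37.6 and 48.3 CPM with 1797 and at 68.0 and 101.2 CPM with control peptide. Both were lower in both 1797 libraries. HERC6 stood at 28.2 and 57.1 CPM with 1797 and at 104 and 68.4 CPM with control peptide. IRF1, which is also induced by interferon gamma and NF-kB, overlapped, at 62.1 and 57.8 CPM with 1797 and 74.4 and 51.9 CPM with control peptide.

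Fewer monocytes had a detected IFI6 transcript with 1797. At 2000 UMIs per barcode, IFI6 was detected in 8.46% and 11.3% of monocytes of the 1797 libraries and in 28.1% and 28.1% of those of the control libraries. ISG15 was detected in 3.08% and 3.17% with 1797 and in 9.38% and 9.88% with control peptide. T cells had IFI6 in 3.80% and 6.09% of barcodes of the 1797 libraries and in 5.62% and 9.62% of those of the control libraries at the same depth. T cells, which transcribe ISG15 too, had it in 25.6% and 25.4% of them with 1797 and 31.9% and 25.2% with control peptide. The monocyte shares were below these in every library, and the part of free RNA in them was not tested. Leaving out the stromal-rich barcodes gave a list median of -1.06, and the median stayed between -1.39 and -0.77 over the 20 alternatives.

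Other myeloid classes were read in the same libraries. Summed over the list, interferon genes held 523 and 648 CPM of monocyte RNA with 1797 and 1175 and 1038 CPM with control peptide. In C1Q macrophages the sums were 827 and 790 CPM with 1797 and 851 and 1129 CPM with control peptide, and 22 of 25 tested genes were lower with a median of -0.29. Dendritic cells overlapped, with sums of 797 and 664 CPM with 1797 and 787 and 867 CPM with control peptide. T cells overlapped too, with 1654 and 1845 CPM with 1797 and 1608 and 1957 CPM with control peptide. Neutrophils did not, with 1617 and 2339 CPM with 1797 and 4531 and 2955 CPM with control peptide. In neutrophils 25 of 26 were lower with a median of -0.90, and in dendritic cells 22 of 27 with a median of -0.34. IFI6 had a log2 fold change of -1.41 in dendritic cells and -0.29 in macrophages, and ISG15 of 0.07 in dendritic cells and -1.50 in macrophages. The difference of the IFI6 effect between monocytes and macrophages was -1.36 ± 0.35, with an adjusted p of 0.828 in the edgeR interaction fit. Over all genes an unadjusted p under 0.05 was reached by 11.8% in macrophages, 2.22% in dendritic cells and 1.33% in neutrophils, and edgeR called 0 genes in each. Whether the whole list differed between classes was not tested.

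**Figure D4:**
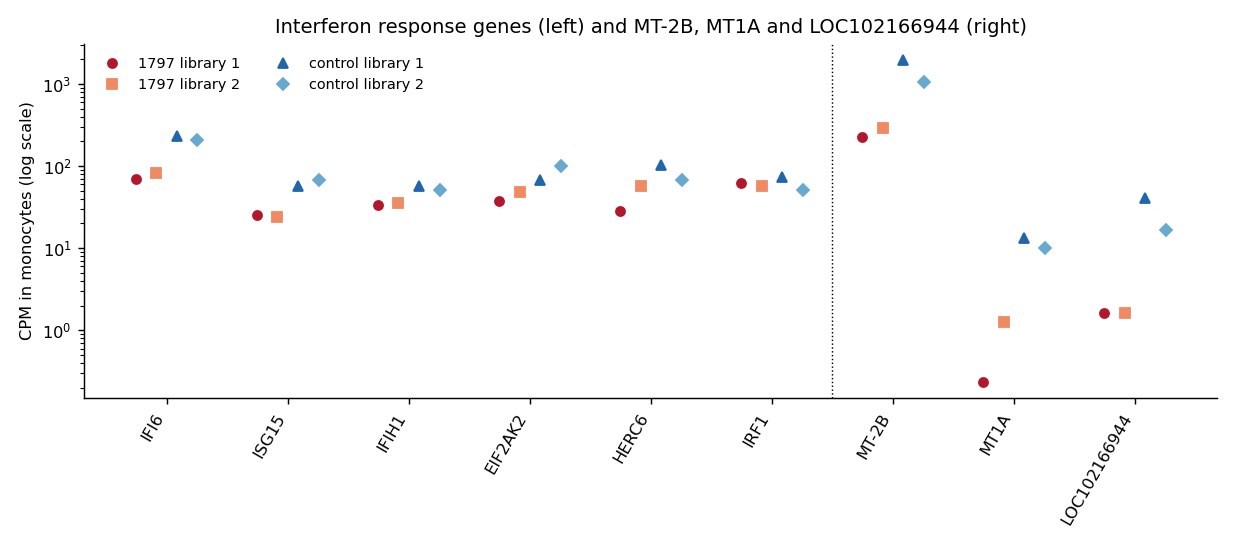
CPM in monocytes (log scale) of 6 interferon response genes, left of the dotted line, and of MT-2B, MT1A and LOC102166944, right of it, 1 point per library with 1797 libraries first. For IFI6 the 1797 libraries sat at 70.3 and 83.3 CPM and the control libraries at 230 and 209 CPM, while IRF1 overlapped.

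Metallothioneins are small proteins that bind zinc and copper and are induced by metals, glucocorticoids and stress. The metallothionein gene MT-2B, named for its small p, on chromosome 6 at 18645125 to 18646034, stood at 224 and 288 CPM with 1797 and at 1957 and 1067 CPM with control peptide, a log2 fold change of -2.65 ± 0.45 (unadjusted p = 0.00289 and adjusted p = 1.00 in edgeR, adjusted p = 3.91e-06 in DESeq2). It was detected in 40.0% and 44.2% of monocytes of the 1797 libraries and in 94.6% and 67.4% of those of the control libraries. T cells, at a lower depth, had it in 8.31% and 7.16% of barcodes with 1797 and 21.5% and 25.9% with control peptide. MT1A, the only tested gene of the 3 metallothionein list genes in the files, on the same chromosome at 18672016 to 18673673, had 1 and 13 UMIs with 1797 and 54 and 76 UMIs with control peptide. MT1D had 0 and 4 UMIs with 1797 and 1 and 0 UMIs with control peptide. LOC102166944, which lies between them at 18660665 to 18662000 and was chosen after its values were seen, stood at 1.65 and 1.63 CPM with 1797 and at 40.7 and 16.4 CPM with control peptide. MT-2B and MT1A are close relatives, so reads could have been divided among them unevenly. MT-2B was also lower outside the monocytes: dendritic cells had 199 and 182 CPM with 1797 and 701 and 420 CPM with control peptide, and T cells had 22.4 and 15.4 CPM with 1797 and 80.3 and 83.2 CPM with control peptide. Macrophages overlapped, with 95.2 and 157 CPM with 1797 and 289 and 155 CPM with control peptide. The MT-2B effect differed between monocytes and macrophages by -1.85 ± 0.24 (unadjusted p = 6.97e-04, adjusted p = 0.828 in the edgeR interaction fit). The heat shock gene HSPA6, chosen after its values were seen, was also lower, at 24.2 and 8.63 CPM with 1797 and 89.8 and 154 CPM with control peptide. In macrophages it stood at 177 and 103 CPM with 1797 and 373 and 702 CPM with control peptide, while dendritic cells, neutrophils and T cells overlapped.

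Among the genes with a symbol that were higher with 1797, those with the smallest unadjusted p were LDLRAD3, HECTD4, PAMR1, NAV2, STARD9 and CXCL14. LDLRAD3, a member of the LDL receptor family on chromosome 2 at 24875379 to 25155314, stood at 152 and 238 CPM with 1797 and at 37.1 and 53.7 CPM with control peptide. Its log2 fold change was 2.05 ± 0.30 (adjusted p = 1.00 in edgeR and 5.81e-05 in DESeq2). It was higher in macrophages too, at 820 and 1303 CPM with 1797 and 520 and 428 CPM with control peptide, a log2 fold change of 1.18. HECTD4, a ubiquitin ligase, stood at 141 and 120 CPM in monocytes of the 1797 libraries and at 37.1 and 58.5 CPM in those of the control libraries. NAV2, a cytoskeletal regulator, stood at 163 and 135 CPM with 1797 and at 28.5 and 59.8 CPM with control peptide. STARD9, a kinesin, stood at 63.3 and 68.6 CPM with 1797 and at 11.8 and 26.7 CPM with control peptide. HECTD4, NAV2 and PAMR1 were more abundant in macrophages and higher with 1797 there too. Macrophages had 487 and 506 CPM of HECTD4 with 1797 and 293 and 176 CPM with control peptide. They had 428 and 383 CPM of NAV2 with 1797 and 239 and 318 CPM with control peptide. STARD9 and CXCL14 overlapped between the groups in macrophages. SLA-1, an MHC class I heavy chain chosen after its values were seen, stood at 1830 and 1560 CPM with 1797 and at 760 and 632 CPM with control peptide, and in T cells at 1633 and 1863 CPM with 1797 and 632 and 627 CPM with control peptide. It shares sequence with SLA-2 and SLA-3, so its value is uncertain.

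Among genes with a symbol, those lower with 1797 by the same rule were IFI6, ISG15, MT-2B, APH1B, MAGI2 and TP53I11. APH1B, a subunit of gamma-secretase, stood at 26.1 and 26.9 CPM with 1797 and at 63.1 and 59.0 CPM with control peptide. In macrophages it stood at 10.3 and 14.9 CPM with 1797 and 33.3 and 38.7 CPM with control peptide. Neutrophils did not overlap either, while dendritic cells and T cells did. TP53I11 stood at 11.99 and 11.4 CPM with 1797 and at 31.9 and 28.6 CPM with control peptide. In macrophages it stood at 4.94 and 3.05 CPM with 1797 and 13.4 and 32.9 CPM with control peptide. MAGI2 stood at 22.1 and 16.7 CPM with 1797 and at 47.8 and 49.9 CPM with control peptide, but without the stromal-rich barcodes its log2 fold change was 0.08 in place of -1.40. The 14 genes that DESeq2 called lower include OMD and NDNF, whose log2 fold changes of -3.53 and -3.63 were -0.35 and -0.43 without those barcodes, and the bone enzyme ALPL, with -2.81 and then -1.57. ADAMTS18, COL24A1, ANO5 and SLC8A3 were not tested there. LOC100152327, which has no symbol and was named after its values were seen, stood at 17.6 and 28.8 CPM with 1797 and at 81.5 and 121.7 CPM with control peptide (log2 fold change -2.17, unadjusted p = 0.00184 in edgeR). It was lower in both 1797 libraries in macrophages, dendritic cells, neutrophils and T cells too. Macrophages had 24.5 and 25.7 CPM with 1797 and 104 and 133 CPM with control peptide. T cells had 22.6 and 162 CPM with 1797 and 551 and 287 CPM with control peptide.

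Repair and osteoclast genes were mixed. FABP4, a fatty acid carrier on chromosome 4 at 55096400 to 55101209, stood at 123 and 74.1 CPM with 1797 and at 9.32 and 28.9 CPM with control peptide (log2 fold change 2.33 ± 0.57, adjusted p = 0.0168 in DESeq2). Without thinning, the share of monocytes with a FABP4 UMI was 8.85% and 11.7% with 1797 and 15.2% and 10.9% with control peptide. At 2000 UMIs per barcode it was 1.92% and 3.56% with 1797 and 0.446% and 1.98% with control peptide. The groups overlapped by either measure. T cells, at a lower depth without thinning, had it in 6.89% and 4.65% of barcodes with 1797 and in 8.83% and 5.95% with control peptide. At 2000 UMIs these T cell shares were 3.13% and 1.65% with 1797 and 2.84% and 1.83% with control peptide. MRC1, the mannose receptor of tissue macrophages on chromosome 10 at 44107926 to 44226734, stood at 64.7 and 20.4 CPM with 1797 and at 8.10 and 6.37 CPM with control peptide, and was detected in 6.92% and 7.92% of monocytes of the 1797 libraries and in 3.13% and 4.94% of those of the control libraries. T cells, at a lower depth, had MRC1 in 1.60% and 1.86% of barcodes with 1797 and in 2.17% and 1.79% with control peptide. C1Q macrophages had 590 and 484 CPM of MRC1 with 1797 and 490 and 297 CPM with control peptide. ARG1 ran the other way, at 2875 and 2931 CPM with 1797 and 3277 and 4275 CPM with control peptide. Of the 15 repair and lipid genes tested 9 were higher and 6 lower. NFATC1 stood at 53.2 and 89.5 CPM with 1797 and at 24.5 and 41.9 CPM with control peptide, a log2 fold change of 1.06 ± 0.37 (unadjusted p = 0.0382 in edgeR), and 10 of 17 osteoclast precursor genes were higher. The osteoclast precursor median of 0.10 was -0.24 without 1797 replicate 2 and 1.38 without control replicate 2, and the repair median of 0.24 was -0.06 without control replicate 1. The osteoclast markers summed to 253 and 527 CPM with 1797 and to 76.3 and 679 CPM with control peptide, and their part in these values was not tested.

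Cell cycle genes were higher in 14 of 14 with a median of 0.93, but 0 passed an unadjusted p of 0.05 in edgeR. The direction was shared by other classes, with 13 of 14 higher in C1Q macrophages, 12 of 14 in dendritic cells and 10 of 12 in neutrophils. Their medians were 1.02, 0.26 and 0.24. TOP2A, a topoisomerase of dividing cells, stood at 32.0 and 73.4 CPM with 1797 and at 2.94 and 40.0 CPM with control peptide. Control replicate 1 was the low library, and without it the list median was 0.37. The antigen presentation genes of MHC class II, 3 of 11 higher with a median of -0.25, went by replicate: CD74 stood at 1473 and 748 CPM with 1797 and at 1591 and 884 CPM with control peptide. The list's median was -0.81 without 1797 replicate 1 and 0.26 without control replicate 1. Hypoxia and glycolysis genes were split evenly, 14 of 28 higher. PFKFB4, an activator of glycolysis, was lower, at 677 and 757 CPM with 1797 and 1128 and 1071 CPM with control peptide. Immediate early and dissociation genes, which rise during tissue digestion, were higher in 13 of 28 with a median of -0.08. Monocyte transcription factors, 7 of 19 higher, had a median of -0.06, tissue remodelling enzymes, 7 of 16 higher, of -0.10, and S100 and granule genes, 3 of 11 higher, of -0.26. Without control replicate 1 the transcription factor median was 0.13, and without control replicate 2 the remodelling median was 0.20. The S100 and granule median was 0.10 without control replicate 2 and -0.60 without 1797 replicate 2.

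The last question is whether the peptide effect in monocytes differed from that in other myeloid cells, tested in edgeR with the library as a block. Against C1Q macrophages 0 of 12187 genes (0%) passed the adjusted p of 0.05 and 704 (5.78%) an unadjusted p of 0.05. Against dendritic cells 0 of 12503 passed and 376 (3.01%) unadjusted, and against neutrophils 0 of 11839 and 413 (3.49%). The neutrophil result was not stable: between 20 and 181 genes passed when 1 library was left out, and 115 without the filter on low counts. Among the genes with the smallest p against macrophages, SAMSN1, an adaptor that dampens immune receptor signals, stood at 331 and 558 CPM in monocytes of the 1797 libraries and at 295 and 724 CPM in those of the control libraries. In macrophages it stood at 52.0 and 95.7 CPM with 1797 and at 176 and 495 CPM with control peptide. Its groups overlapped in monocytes and not in macrophages. CHST11, PDE3B and ABCA6 had differences of 1.39 to 2.89 the same way. ABCA6, with the 2.89, was near the floor in monocytes, at 4.23 and 4.03 CPM with 1797 and 0.98 and 0.53 CPM with control peptide. In macrophages ABCA6 stood at 34.3 and 47.4 CPM with 1797 and 96.2 and 36.9 CPM with control peptide. DOPEY2 had -1.97 ± 0.21, with 176 and 278 CPM in monocytes of the 1797 libraries and 760 and 472 CPM in those of the control libraries, and FOSL1 and ADORA2A had -1.63 and -1.16. Each of these had an adjusted p of 0.828. IL1B did not pass either: its effect was 0.26 in monocytes and -0.72 in macrophages, a difference of 0.94 ± 0.50 (adjusted p = 0.828 in edgeR).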

How the data were processed

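Droplet 3' libraries (10x Genomics v2 protocol, per the labels' protocols) were aligned and counted with Cell Ranger against Sscrofa11.1, version 5.0.0 per the submitters' processing notes and 7.0.1 per the file headers. The deposited values are whole-number UMI counts for 20648 genes per barcode, filtered to barcodes of at least 500 UMIs. Counts of the monocytes were summed per library, giving 4075293 to 10430083 UMIs, and tested with edgeR 4.0.16 (quasi-likelihood, TMM, filterByExpr, Benjamini-Hochberg over all genes) in R 4.3.3. DESeq2 1.42.0 on the same sums was an alternative. Shares were compared by exact permutation over libraries. Free RNA in droplets was not removed. Doublets were called with Scrublet in scanpy 1.11.5 at an expected rate of 0.1, and the called barcodes were left out only in an alternative. The 2 libraries of a group differed by more than sampling noise (chi-square over its degrees of freedom 32.3 for 1797 and 26.7 for control), so none was treated as a repeat deposit of another. This does not show that they are separate animals.

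The members and the 19 gene lists were chosen with earlier results of these data known. The text names up to 6 genes of the main lists and up to 4 of the others by mean CPM, and up to 6 genes with a symbol each way with the smallest unadjusted p, a mean of at least 20 CPM and groups that did not overlap. CCR1, CCR2, PTGES, FABP4, MRC1, NFATC1, ACP5, CLU and the genes named from DESeq2's calls were added after their values were seen. Genome coordinates come from a RefSeq table of Sscrofa11.1. Analyses used Python 3.11.15, and each test was tried on simulated counts first.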

Additional observations from a re-analysis of the deposited data

How the results depend on the processing

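edgeR called 0 genes under the alternatives run except after thinning to 2000 UMIs, which gave 2, and DESeq2 called 21. A check of whether replicate numbers pair the libraries gave r = -0.19 for same-numbered and 0.19 for crossed libraries. With 2 libraries a group these values mirror each other, so the check cannot decide whether equal numbers share a batch. S100A8, the monocyte share of kept barcodes and CD74 went by replicate number in both groups, and the reason was not tested. With the replicate block edgeR called 0 genes and 289 had an unadjusted p under 0.05, against 361 without it. With the crossed block these counts were 0 and 381. The macrophage interaction gave 2 genes after thinning. The neutrophil interaction gave 115 without the low-count filter and 20 to 181 when 1 library was left out. The monocyte share of kept barcodes differed by -0.47 to 1.30 percentage points without 1 library and by -0.0900 after thinning, and the share of CSF1R barcodes by 0.55 to 12.1 and by -1.45.

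Of 35 named genes 21 kept the sign of their log2 fold change under every alternative run, and 50 of 721 values turned. With library totals only, NLRP3 was 0.022, TGFB1 0.011 and OSM 0.014. With no C1Q UMI allowed, TGFB1 was 0.035 and OSM 0.051. With all 3 markers required, TGFB1 was 0.10, OSM 0.085 and IRF1 0.13. After thinning, IL1A was 0.33, NLRP3 0.059, IL18BP 0.080, TGFB1 0.14, HBEGF 0.11, OSM 0.64, THBS1 0.43 and VEGFA -0.26. Another alternative left out monocytes with a UMI of ACP5, CTSK, DCSTAMP or OCSTAMP. There IL1A was 0.10, NLRP3 0.24, TGFB1 0.11, HBEGF 0.31, OSM 0.16, THBS1 0.046, SPP1 0.28, IRF1 0.14 and MAGI2 1.23. Without the stromal-rich barcodes, an alternative chosen after seeing the data, SPP1 was 0.42, VEGFA -0.028 and MAGI2 0.078. With FCN1 required, also chosen after seeing the data, IL1A was 0.072, NLRP3 0.11, TGFB1 0.11, OSM 0.16 and IRF1 0.021. When 1 library was left out, the ranges that crossed 0 were -0.050 to 0.66 for IL1B, -0.37 to 0.28 for IL1A, -0.39 to 0.36 for NLRP3, -0.21 to 0.79 for IL1RAP, -0.97 to 0.0075 for IL18BP, -0.56 to 0.000135 for CASP1, -0.31 to 0.23 for TGFB1, -0.41 to 0.0073 for HBEGF, -0.12 to 0.042 for OSM, -0.73 to 0.11 for SPP1, -0.18 to 0.32 for VEGFA and -0.47 to 0.25 for IRF1. The cause was not tested for any of these. With 2 libraries a group, an exact test of a share cannot fall below p = 0.333.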

Other observations

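Barcodes that met the rule except for having no CSF1R UMI numbered 175 and 329 with 1797 and 38 and 629 with control peptide. Their IL1B level was 421 and 611 CPM with 1797 and 1584 and 92.5 CPM with control peptide, and their S100A8 level was 403 and 4290 CPM with 1797 and 1523 and 8287 CPM with control peptide. Control replicate 1 had the fewest such barcodes and the most IL1B in them.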
